A study of Homo sapiens and Mus musculus with 18 samples.

Results

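The mitochondrial ribosome translates the mRNAs of the mitochondrial genome, all of which code for subunits of the respiratory chain and the ATP synthase. Its ribosomal RNAs are made inside the organelle, but its proteins are encoded in the nucleus, made in the cytosol and imported. The genes are named MRPL for proteins of the large subunit, which forms peptide bonds, and MRPS for proteins of the small subunit, which reads the mRNA. They are expressed in nearly every cell type, and promoters of nuclear genes for mitochondrial proteins are known to be bound by NRF1 and by the ETS family factor GABPA. The genes described here are the protein-coding genes whose GENCODE symbol is MRPL or MRPS followed by a number and at most one letter, ignoring case. Of 44910 human and 29720 mouse genes with counts, 78 in each species met this rule, 49 of the large and 29 of the small subunit, and the 78 symbols were the same in both. Subunits are assigned from the symbol throughout. In the assembled ribosome the proteins of MRPS30 and MRPS18A sit in the large subunit, and MRPS36 encodes a component of the 2-oxoglutarate dehydrogenase complex; the sensitivity of the subunit totals to this is given with the totals.

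RNA was sequenced from stem cells and from gastruloids, which are stem cell aggregates that elongate and form derivatives of the germ layers. There were 2 biological replicates in each of 9 groups, 18 libraries in all. The human groups were naive H9 embryonic stem cells (ESCs; reset chemically from H9 and grown on mouse feeder cells that were removed over passages), primed H9 ESCs, primed RUES2_GLR ESCs (a RUES2 line carrying fluorescent germ layer reporters, written RUES2-GLR in the plots), and RA-gastruloids made from RUES2_GLR cells by treatment with CHIR99021, which activates WNT signalling, and with retinoic acid, early (24 h) and late (120 h). The mouse groups, all from the E14Tg2a line, were naive ESCs in 2i and LIF, epiblast-like cells (EpiLCs) made with activin A and FGF, and early (3 days) and late (6 days) gastruloids made from naive ESCs with a CHIR99021 pulse. Each group thus comes from 1 cell line, the naive and primed H9 cells differ from the gastruloids in line as well as in state, and a stage cannot be told apart from its medium. In these bulk samples, fewer cells of a type and less RNA per cell cannot be told apart.

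Library totals ran from 3681739 counts (primed RUES2_GLR replicate 2) to 38771193 for human samples, while mouse samples had 6487157 to 20052505, of which between 10176 and 189423 human and between 27562 and 91021 mouse counts fell on the set. Markers of 3 labelled states are given here. The summed naive markers KLF17, SUSD2, DPPA5 and DNMT3L lay at 4898 to 5305 CPM (a gene's counts relative to the library total) in naive H9 and at 7.53 to 8.95 CPM in primed H9. Early gastruloid markers TBXT, MIXL1, CDX2 and TBX6 summed to 784 to 825 CPM in early RA-gastruloids and 2.55 to 3.11 CPM in primed RUES2_GLR. In mouse, the naive markers Zfp42, Klf4, Esrrb and Tbx3 summed to 1972 to 2002 CPM in naive ESCs and 46.3 to 49.8 CPM in EpiLCs. They were still at 817 to 832 CPM in early mouse gastruloids. In naive H9 the summed level of 6 fibroblast genes was 665 to 686 CPM, against 267 to 276 CPM in primed H9. The sum was 562 to 628 CPM in primed RUES2_GLR, 992 to 1059 CPM in early and 583 to 686 CPM in late RA-gastruloids. Of the 6 genes, DCN stood at 7.12 CPM and LUM at 1.85 CPM in naive H9, and both were listed at 0 in primed H9. The part of feeder RNA in the results of naive H9 was not tested. CPM values are scaled by edgeR's TMM factors, and "rose" or "fell" means an adjusted p under 0.05 in the quasi-likelihood test of edgeR, adjusted by Benjamini-Hochberg over all genes tested.

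Nearly the whole set could be measured: 77 of 78 human and all 78 mouse genes passed the filter on low counts. The exception, MRPL53, had 1 count over the 10 human libraries, where 3 counts in a library correspond to between 0.0715 and 0.956 CPM. Of its 685 exon bases, 72.8% lie also in exons of CCDC142, and reads on bases that belong to 2 genes are not counted under the counter's default setting. In all, 20 human and 23 mouse genes of the set share over 20% of their exon bases with another gene in GENCODE. That share can be lower or higher in the deposited exons, on which the reads were counted. For mouse Mrpl54 it is 94.4% in GENCODE and 0% in the deposited exons, and for mouse Mrps25 47.9% and 69.8%. Named pseudogene copies exist for 36 human genes (81 copies in total). Levels are less certain for these 36 and for genes that share many bases in the deposited exons.

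Levels per length are in TPM, which divides counts by exon length before scaling to the library, averaged over group means. The highest human gene was MRPL41 at 497 TPM, with group means from 178.5 to 1107 TPM, followed by MRPS34 (371 TPM), MRPS26 (364 TPM), MRPL51 (338 TPM) and MRPL14 (276 TPM). In mouse the order was led by Mrpl12, whose protein forms part of the stalk that recruits translation factors, at 350 TPM, followed by Mrpl2 (327 TPM), Mrpl34 (288 TPM), Mrpl28 (279 TPM) and Mrps28 (213 TPM). No gene was among the 5 highest in both species. At the low end, MRPS5 averaged 1.22 TPM and MRPS24 2.27 TPM in human, while mouse Mrps24 was at 184 TPM, and mouse Mrpl23 was at 1.48 TPM against 11.3 TPM for human MRPL23. GENCODE lists a readthrough gene, URGCP-MRPS24, over 23.25% of the exon bases of human MRPS24. In the deposited exons, on which the reads were counted, MRPS24 shares 0% with other genes. Over the 78 genes the rank correlation of mean TPM between species was 0.196, which is given as a description, since lengths and shared bases differ between the annotations. The plot of mean levels shows a main cloud from about 10 TPM upwards in both species, 7 human and 3 mouse genes lying below 10 TPM.

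**Figure D1:**
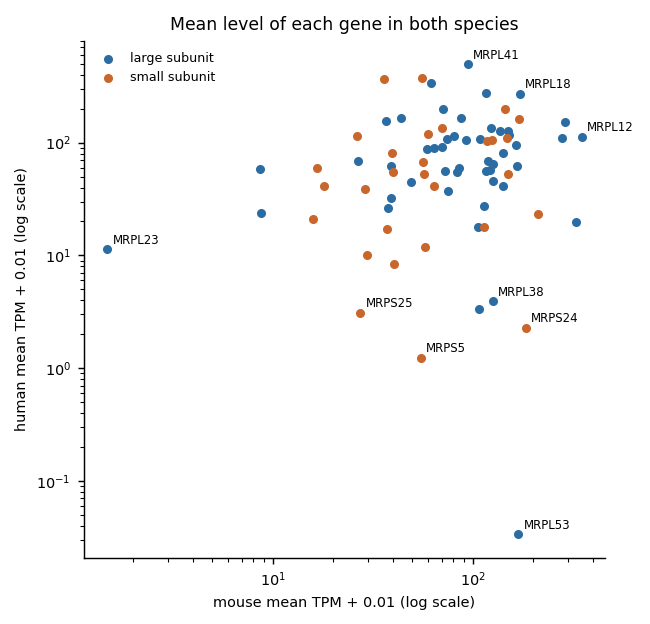
Mean TPM of each gene in mouse (x axis) and human (y axis), on log scales with 0.01 TPM added; each point is 1 gene, coloured by subunit. Human MRPL53 lies near the floor, followed upwards by MRPS5 at 1.22 TPM and MRPS24 at 2.27 TPM.

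Large subunit genes summed to between 1.81 and 2.62 times the small subunit genes in the 18 libraries. These are sums over 49 large and 29 small subunit genes, so the ratio is not one of levels per gene. The median gene had a mean of 69.5 TPM in the large and 52.7 TPM in the small subunit in human, and 105.7 and 56.1 TPM in mouse. The ratio of summed TPM was 2.13 and 2.11 in naive H9, 1.84 and 1.81 in primed H9, and 2.04 and 2.23 in primed RUES2_GLR. RA-gastruloids had ratios of 2.10 and 2.07 at the early and 2.01 and 2.08 at the late stage. Primed H9 held the lowest human values of this TPM ratio. That order was not kept from CPM, where late RA-gastruloid replicate 1 (1.73) lay below primed H9 replicate 1 (1.74), or without the highest gene of each subunit (2.09 against 2.10 in the same libraries). In mouse it was 2.33 and 2.35 in naive ESCs, 2.52 and 2.53 in EpiLCs, 2.41 and 2.46 in early and 2.50 and 2.62 in late gastruloids. The within-group SD was 0.0652 in human (mean ratio 2.04) and 0.0485 in mouse (mean ratio 2.46). No exact test between 2 groups of 2 libraries can reach 0.05, and the ratios are given as a description. With MRPS30 and MRPS18A moved to the large subunit and MRPS36 left out, the mean ratios were 2.23 and 2.63, and with CPM in place of TPM 1.80 and 2.21.

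The summed level of the whole set ranged from 3165 to 11706 TPM over the human libraries. Large subunit genes added up to 7451 and 7940 TPM in naive H9, 6054 and 6115 TPM in primed H9, 2178 and 2186 TPM in primed RUES2_GLR, and for RA-gastruloids to 4334 and 4281 TPM early and 4078 and 3700 TPM late, with small subunit genes from 980 to 3766 TPM. Primed RUES2_GLR was the lowest group in TPM, and there the 13 mitochondrially encoded mRNAs took 41.2% and 41.7% of all TPM, against 9.54% to 20.01% in the other human libraries. Recomputed without those mRNAs, the set as a whole stood at 13210 and 13865 TPM in naive H9, 10480 and 10491 TPM in primed H9, 5514 and 5429 TPM in primed RUES2_GLR, and for RA-gastruloids at 7409 and 7398 TPM early and 7202 and 6853 TPM late, so that the order of the groups was the same. In CPM, the scale of the tests, primed RUES2_GLR was not the lowest: the set summed to 3231 and 3242 CPM there, 3645 and 3657 CPM in early and 3309 and 2988 CPM in late RA-gastruloids. In mouse the large subunit total stayed between 4964 and 6210 TPM, highest in EpiLCs.

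**Figure D2:**
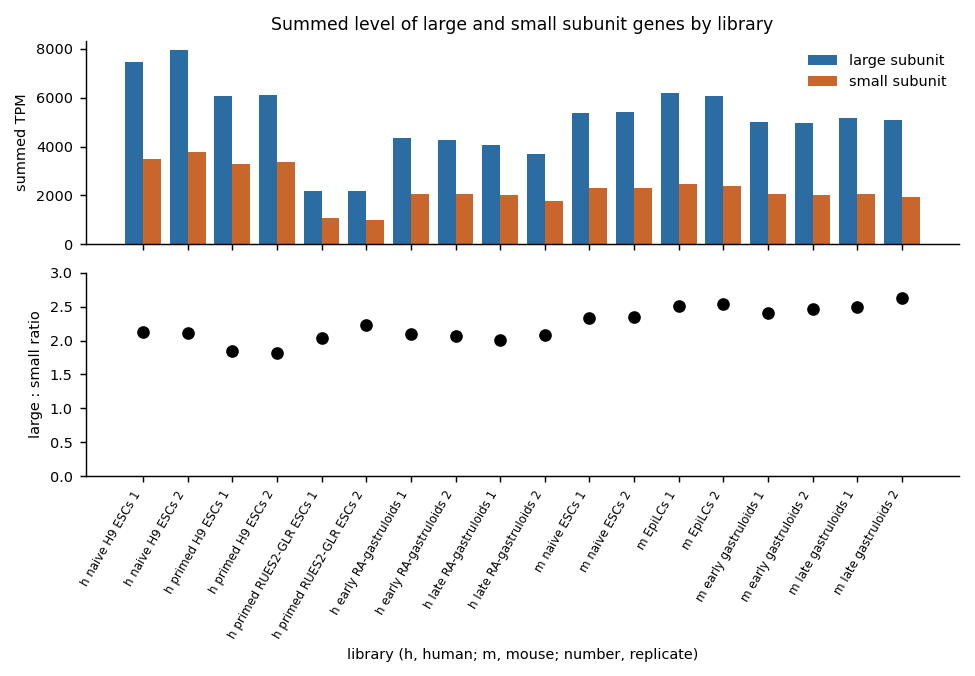
Summed TPM of large and small subunit genes (upper panel, bars from 0) and their ratio (lower panel) in each of the 18 libraries (x axis). The TPM totals are lowest in primed RUES2_GLR, at 2178 and 2186 TPM for the large subunit, while the ratio stays between 1.81 and 2.23 in human and between 2.33 and 2.62 in mouse.

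Promoters of the set are shown as a description, and a link between their motifs and the changes given below was not tested. RefSeq promoters (GRCh38.p14, 250 bases before to 50 after the start) were matched by symbol for 69 of the 78 human genes and compared with all 27305. Searched on both strands, the ETS motif CCGGAAG was in 29 of the set's 69 promoters and 10.7% of all, the YY1 motif CAAGATGG in 18.8% and 2.30%, the NRF1 core GCATGCGC in 8.70% and 3.27%, the SP1 box GGGCGG in 60.9% and 44.6%, and the E box CACGTG in 8.70% and 7.43%. Mean GC content was 61.5% in the set and 57.2% over all promoters. ETS matches of the set had their median start 22 bases before the transcription start, and 10 of its 14 YY1 matches began after the start. A match is a run of letters, not a measured binding site. The 100 bases just before the start are printed for genes whose window overlaps no GENCODE exon: MRPL18, MRPS12 and MRPL42, which departed from the set in the first comparison, and MRPL58 and MRPS18A, which carry an ETS match. Capitals mark matches to any of the 5 motifs.
MRPL18 (chr6:159789712-159789811, plus strand): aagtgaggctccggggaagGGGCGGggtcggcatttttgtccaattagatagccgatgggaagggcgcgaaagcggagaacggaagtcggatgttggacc
MRPS12 (chr19:38930844-38930943, plus strand): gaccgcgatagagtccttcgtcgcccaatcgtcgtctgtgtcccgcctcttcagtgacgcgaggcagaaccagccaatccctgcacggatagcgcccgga
MRPL42 (chr12:93467414-93467513, plus strand): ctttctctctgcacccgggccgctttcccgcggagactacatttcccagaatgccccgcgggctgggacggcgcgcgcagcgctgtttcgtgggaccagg
MRPL58 (chr17:75012570-75012669, plus strand): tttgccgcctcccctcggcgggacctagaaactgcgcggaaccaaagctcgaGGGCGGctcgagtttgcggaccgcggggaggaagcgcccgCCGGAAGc
MRPS18A (chr6:43687792-43687891, minus strand): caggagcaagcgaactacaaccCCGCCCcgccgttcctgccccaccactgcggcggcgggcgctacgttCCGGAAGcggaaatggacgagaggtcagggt
The windows of MRPS12 and MRPL42 hold none of the 5 motifs, and that of MRPL18 holds an SP1 box alone. Over their whole 300-base promoters, MRPS12 has ETS, SP1 box and YY1 matches, MRPL42 a YY1 match and MRPL18 the SP1 box.

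Set members were lower in primed than in naive H9 cells. Of 77 genes tested, 56 fell, 4 rose and 17 did not pass, against 37.7% of all genes lower and 37.6% higher, and the median log2 fold change was -0.59 against 0.00 over all genes. Both subunits moved alike, with 37 of 48 large subunit genes lower (median -0.64) and 19 of 29 small subunit genes lower (median -0.59). The stalk genes MRPL12 (-1.20 ± 0.13 SE) and MRPL10 (-0.54 ± 0.12) fell, as did MRPL58, which encodes a peptidyl-tRNA hydrolase of the large subunit (-0.72 ± 0.13), and all 3 MRPS18 paralogues, MRPS18B, MRPS18C (-0.97) and MRPS18A (-0.84). MRPL11, the third stalk gene, was at -0.18 ± 0.11 and did not pass (edgeR adjusted p = 0.14). Genes of the cytosolic ribosome moved the same way, 75 of 79 being lower (median -0.72), and all 13 mitochondrially encoded mRNAs were lower (median -1.29).

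A gene departs from the set when, with library sizes set to the summed counts of the set, its fold change relative to the set exceeds 2-fold at an edgeR adjusted p under 0.05. In this comparison 7 members departed, against 54% of all genes. MRPL18 (chr6:159789812-159798436), which encodes a protein of the large subunit, stood at 344.5 and 353 CPM in naive H9 and at 69.0 and 67.5 CPM in primed H9, a log2 fold change of -2.35 ± 0.11 (adjusted p = 6.3e-19). MRPS23 (chr17:57834781-57850056) stood at 288 and 296 CPM and then at 78.4 and 83.2 CPM (-1.85 ± 0.11, adjusted p = 8.9e-16). MRPS12 (chr19:38930944-38933168), the homologue of the bacterial decoding protein S12, stood at 246 and 293 CPM and then at 66.0 and 68.6 CPM (-2.00 ± 0.13, adjusted p = 1.1e-14). In all 3 the groups did not overlap, as held for 8024 of the 18300 genes tested in the same direction and 8056 in the other. Levels of the 3 genes in RUES2_GLR and both gastruloid groups were lower still, between 22.4 and 56.7 CPM. The other 4 rose: MRPS6 (chr21:34073224-34143034) from 29.0 and 23.6 to 58.2 and 63.4 CPM (1.21 ± 0.13, adjusted p = 4.3e-10), MRPL42 from 48.8 and 49.2 to 88.2 and 94.6 CPM (0.90 ± 0.13), MRPS9 from 42.2 and 40.0 to 57.9 and 60.9 CPM (0.53 ± 0.11) and MRPS27 from 80.4 to 107 CPM in the mean (0.42 ± 0.11). These were the 4 genes of the set that rose. MRPS6 shares 9.48% of its exon bases with other genes, SLC5A3 among them.

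**Figure D3:**
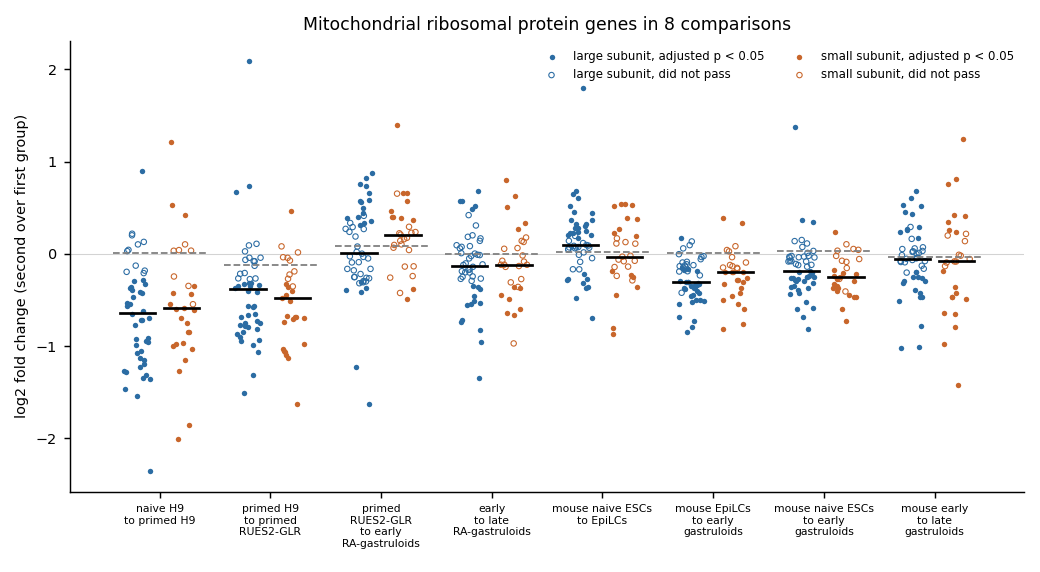
Log2 fold change of each gene (y axis) in the 8 comparisons (x axis), by subunit; filled points had an adjusted p under 0.05, black bars are subunit medians and dashed lines the median of all genes tested. The set lies below the dashed line in naive to primed H9 (median -0.59), with 1 large subunit gene, MRPL18, at -2.35.

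The 2 primed lines also differed. In RUES2_GLR 50 of 77 genes were lower than in primed H9 and 4 were higher, with 33.5% of all genes lower and 25% higher; the set's median was -0.42 and that of all genes -0.12. Large subunit genes had a median of -0.38 (31 of 48 lower) and small subunit genes of -0.48 (19 of 29 lower). With DESeq2 size factors the median of all genes was 0.00 and that of the set -0.27, with 37 lower. The number lower was 29 without RUES2_GLR replicate 1, which leaves the shallow replicate 2 alone in its group. Line and culture cannot be told apart from each other here, and the mitochondrially encoded mRNAs rose in all 13 cases (median 2.96). MRPL44, part of the large subunit near the exit tunnel, fell from 65.5 to 33.4 CPM (-0.95 ± 0.12), MRPS34 fell by 1.13 and MRPS2 by 1.05 on the log2 scale, and MRPS36 rose by 0.46.

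From primed H9 to RUES2_GLR 5 genes departed from the set, against 29.8% of all genes. MRPL23 (chr11:1947278-1984522), which lies beside the imprinted H19 and IGF2 genes, had 2.80 and 3.88 CPM in primed H9 and 13.8 and 17.2 CPM in RUES2_GLR (2.09 ± 0.21, adjusted p = 6.2e-10); it stayed at 9.68 to 14.8 CPM in all 4 gastruloid libraries made from that line and was at 5.96 and 7.29 CPM in naive H9. Both H9 states therefore lay below every RUES2_GLR-derived library. MRPL32 rose from 70.3 and 68.0 to 114 and 117 CPM (0.74 ± 0.11) and MRPL1 from 20.1 to 31.7 CPM in the mean (0.67 ± 0.13). MRPS24 and MRPL46 fell by 1.63 ± 0.45 and 1.51 ± 0.30 on the log2 scale but rest on few reads, with 10 and 2 counts for MRPS24 and 30 and 6 for MRPL46 in the RUES2_GLR libraries.

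Between primed RUES2_GLR cells and early RA-gastruloids the set was divided. There 24 genes rose, 8 fell and 45 did not pass, with 29.7% of all genes higher and 26.1% lower; the set's median was 0.16 and that of all genes 0.08. The split depended on the scaling, being 21 higher and 16 lower with DESeq2 size factors and 15 higher and 18 lower with upper quartile scaling, and the median of the large subunit genes turned from 0.01 to -0.06 and -0.12, while that of the small subunit genes stayed above 0 (0.21, 0.14 and 0.08). Without RUES2_GLR replicate 1, 13 rose and 4 fell, and without early RA-gastruloid replicate 1 or 2, 2 and 4 fell. MRPL37 rose by 0.88, MRPL40 by 0.82 and MRPL44 by 0.74 on the log2 scale. Against 29.7% of all genes, 3 members departed from the set. MRPS6 rose from 46.2 and 37.3 to 118 and 107 CPM (1.40 ± 0.13, adjusted p = 1.5e-10), and MRPL32 fell from 114 and 117 to 48.2 and 50.7 CPM (-1.22 ± 0.12, adjusted p = 1.5e-10). MRPL38 fell from 3.11 and 2.87 to 0.480 and 1.51 CPM, on 5 and 15 counts in the early libraries.

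**Figure D4:**
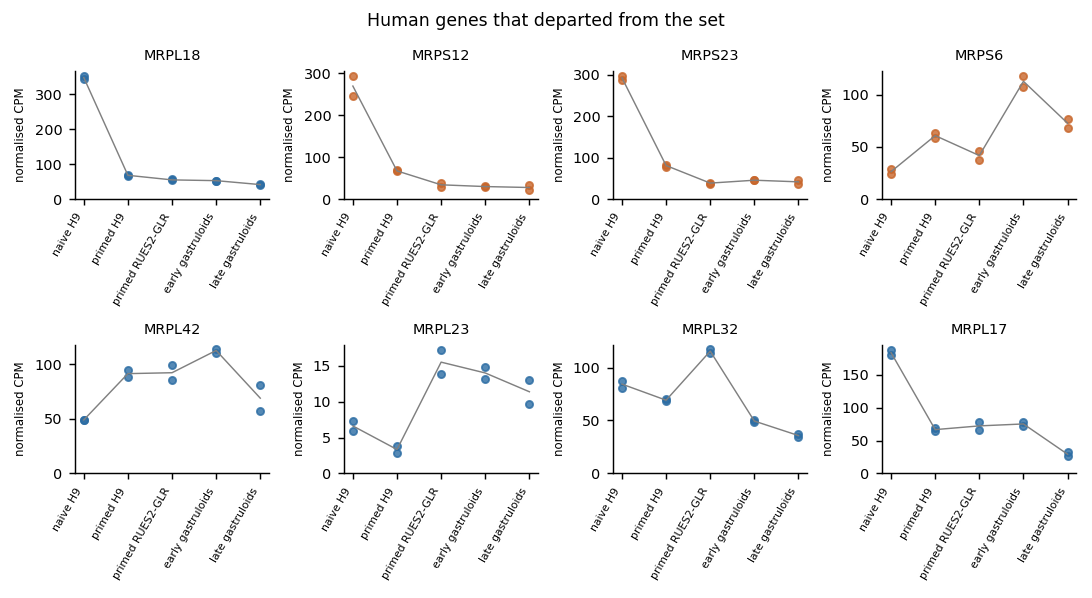
Normalised CPM (y axes, from 0) of 8 human genes that departed from the set, in each human group (x axes); points are the 2 replicates and lines join group means. MRPL18, MRPS12 and MRPS23 are highest in naive H9, MRPS6 peaks in early RA-gastruloids at 107 and 118 CPM, and MRPL23 is higher in all RUES2_GLR-derived groups than in H9.

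The last human comparison set late against early RA-gastruloids. In the late group 20 genes were lower and 10 higher, 47 did not pass, and 25.7% of all genes were lower and 26.3% higher; the set's median was -0.12 (large -0.13, small -0.12) and that of all genes 0.00. Without late replicate 1 the number higher was 5, and without early replicate 1 it was 6. The mitochondrially encoded mRNAs had 9 of 13 members higher, and cytosolic ribosomal protein genes 49 of 79 higher (median 0.29). MRPL17 (chr11:6680385-6683340) departed from the set, against 27% of all genes: it fell from 71.8 and 78.9 to 32.6 and 25.8 CPM (-1.35 ± 0.13, adjusted p = 1.4e-10). Large falls were also measured for MRPL39 (-0.95), MRPL44 (-0.83), MRPS30 (-0.67) and MRPL3 (-0.55). MRPS17 (0.80), MRPL46 (0.68) and MRPS31 (0.63) rose, MRPS17 from a mean of 4.33 CPM.

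In mouse the median of the set lay between -0.27 and 0.09 in all 4 comparisons. From naive ESCs to EpiLCs 30 genes rose and 16 fell, against 33.8% and 32.2% of all genes, with a median of 0.09 (large 0.10, small -0.03; the small subunit median was 0.06 with upper quartile scaling, where 43 rose and 11 fell). Without naive replicate 1 the number that rose was 19. Mrps2 fell from 182 and 185 to 107 and 104 CPM (-0.80 ± 0.06, adjusted p = 3.6e-17), Mrps6 by 0.86 and Mrpl14 by 0.69 on the log2 scale, while Mrpl33 (0.68), Mrpl13 (0.65) and Mrps34 (0.54) rose. Mrpl23 alone departed from the set, against 29.6% of all genes, at 0.558 and 0.987 CPM in naive ESCs and 2.66 and 2.96 CPM in EpiLCs (1.79 ± 0.43), on 4 and 11 counts in the naive libraries.

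Early mouse gastruloids, which were made from naive ESCs and not from EpiLCs, were compared with both. Against EpiLCs 47 of 78 genes were lower and 3 higher, with 30.5% of all genes lower and 32.3% higher; the median was -0.27 (large -0.31, small -0.20). The lowest were Mrpl57 (-0.84), Mrps33 (-0.81) and Mrpl24 (-0.79), and Mrps6 (0.39), Mrps2 (0.33) and Mrpl39 (0.17) were higher. Without EpiLC replicate 2 or early replicate 1, 1 gene was higher. No member departed, against 22.9% of all genes. Against naive ESCs 42 were lower and 4 higher, with 30% of all genes lower and 33% higher, and the median was -0.21 (large -0.19, small -0.25); Mrpl36 (-0.81), Mrps5 (-0.73) and Mrpl35 (-0.68) were lowest. DESeq2 gave 27 lower and 0 higher, and without naive replicate 1 or early replicate 1 edgeR gave 1 higher. Mrpl23 departed again, against 24.7% of all genes (1.37 ± 0.43). These comparisons share libraries and are not independent. The mitochondrially encoded mRNAs were higher in early gastruloids for all 6 tested, with medians of 1.04 against EpiLCs and 1.14 against naive ESCs.

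From early to late mouse gastruloids 19 genes rose, 27 fell and 32 did not pass, with 37.6% of all genes higher and 38.5% lower, and the median was -0.06 (large -0.05, small -0.08). Of other parts of the translation machinery, 15 of 20 mitochondrial aminoacyl-tRNA synthetase genes were lower (median -0.39), as were 17 of 28 assembly factor genes (median -0.29) and 45 of 77 cytosolic ribosomal protein genes (median -0.20). The synthetase genes summed to 882 to 910 CPM in early and 650 to 965 CPM in late libraries, so the late replicates disagreed in this sum. Against 39.2% of all genes, 2 members departed from the set, both of the small subunit. Mrps21 (chr3:95766069-95778879) rose from 23.6 and 22.8 to 59.8 and 49.7 CPM (1.24 ± 0.10, adjusted p = 1.8e-17), having been at 21.0 to 23.0 CPM in naive ESCs and EpiLCs. Mrps18b (chr17:36221266-36227606) fell from 47.1 and 48.4 to 18.6 and 17.0 CPM (-1.42 ± 0.10, adjusted p = 6.6e-19), while its paralogue Mrps18c rose by 0.42 ± 0.13 and Mrps18a fell by 0.18 ± 0.08 on the log2 scale. Mrps18b shares 30.5% of its exon bases with an overlapping gene on the opposite strand, Gm16279. Mrpl15 fell from 220.2 and 229.8 to 107 and 117 CPM (-1.01 ± 0.06) and Mrpl16 from 68.1 and 70.4 to 32.2 and 36.3 CPM (-1.02 ± 0.09). Mrpl11 (0.53) and Mrpl58 (0.52) rose, but theirs were not the largest rises after Mrps21. In the fit over both species described below, Mrps33 (0.68), Mrps6 (0.64) and Mrpl54 (0.56) rose by more in mouse than Mrpl11 and Mrpl58 (0.40 each).

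The change from early to late was then compared between species in 1 fit over the 18 libraries and 13929 genes matched by symbol. That fit has 1 estimate of spread per gene for both species, so its errors are not those of each species alone. In the separate fits the common coefficient of biological variation was 8.18% in human and 4.30% in mouse. The 2 changes differed for 38 of 78 members at an adjusted p under 0.05, against 59.4% of all matched genes. For 22 of these the human change was above the mouse change and for 16 below it; with DESeq2 size factors the numbers were 15 and 22, the median difference over all genes moving from 0.05 to -0.05. The time between stages also differs between the species and cannot be told apart from the species. In the fits of each species alone, 8 members fell in both, MRPL17, MRPL39, MRPL10 and MRPL37 among them, MRPS21 rose in both, and 7 changed in opposite directions. In those fits 25.7% of all human genes fell and 26.3% rose, and 38.5% of all mouse genes fell and 37.6% rose. Among members, 20 of 77 fell and 10 rose in human, and 27 of 78 fell and 19 rose in mouse. The share of all matched genes called in both species was not computed. Whether the counts of members called in both species exceed what these numbers alone would give was not tested. MRPS6 fell in human from 118 and 107 to 68.5 and 76.8 CPM and rose in mouse from 14.6 and 14.2 to 24.1 and 25.2 CPM, a human minus mouse difference of -1.25 ± 0.18 SE (adjusted p = 2.6e-07). MRPL34 fell in human from 46.6 and 43.6 to 28.7 and 24.8 CPM and rose in mouse from 40.6 and 44.2 to 64.3 and 64.0 CPM, a difference of -1.20 ± 0.16. MRPS31 went the other way, from 23.4 and 24.9 to 36.6 and 38.2 CPM in human and from 50.5 and 56.6 to 38.1 and 37.5 CPM in mouse (1.27 ± 0.17), as did MRPL1 (1.14 ± 0.16). For these 4 genes the replicates of each stage did not overlap in either species, and the sign of the difference was the same with DESeq2 size factors. Over all genes tested, the replicates also did not overlap for 6774 higher and 6370 lower of 18300 in human. In mouse these were 6420 and 6734 of 15003.

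**Figure D5:**
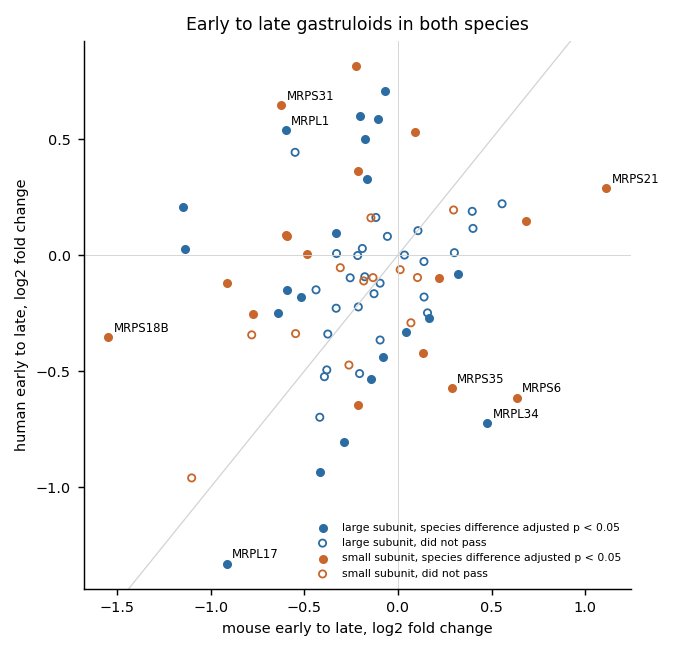
Log2 fold change from early to late gastruloids in mouse (x axis) and human (y axis), both from the fit over 18 libraries; filled points had a species difference with an adjusted p under 0.05 and the diagonal marks equal change. MRPS31 and MRPL1 lie upper left, MRPS6, MRPL34 and MRPS35 lower right, and MRPL17 fell in both.

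How alike members were across libraries was described by the Pearson correlation of each gene's log2 CPM with the mean of the other members. Its median was 0.885 over the 10 human libraries (large 0.884, small 0.886) and 0.731 over the 8 mouse libraries (large 0.755, small 0.633), and it was above 0 for 72 human and 62 mouse genes. MRPL53 (0.571), with 1 count over the human libraries, is among the 72. The correlation was not computed for genes outside the set, so these values do not show a likeness particular to it. The highest human values were those of MRPS23 (0.994), MRPS12 (0.985) and MRPL20 (0.978), the first 2 of which departed from the set by their larger fall from naive to primed H9. The lowest were MRPS6 (-0.685), MRPL42 (-0.683) and MRPL23 (-0.589). In mouse they were Mrps21 (-0.754), Mrpl54 (-0.616) and Mrpl41 (-0.608) at the low end and Mrpl47 (0.978), Mrpl55 (0.972) and Mrpl19 (0.961) at the high end. Mrps6 was low in mouse too (-0.594). Libraries of a group share their state, so these values describe 5 human and 4 mouse groups more than separate points.

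Genes that serve the ribosome but lie outside the symbol rule gave mixed counts. The 5 further ribosomal protein genes DAP3, AURKAIP1, CHCHD1, PTCD3 and GADD45GIP1 had 3 of 5 lower in primed than in naive H9 (37.7% of all genes), DAP3 falling from 178 to 69.2 CPM (-1.37), and all 5 lower in early mouse gastruloids than in EpiLCs (30.5% of all genes). Of 29 human assembly factor genes, 13 were lower and 6 higher in primed than in naive H9, where 37.7% and 37.6% of all genes were, and 20 were lower in RUES2_GLR than in primed H9 (33.5% of all genes). Of 10 regulator genes, 6 were lower and 3 higher in primed than in naive H9. MYC (1.26), YY1 (0.38) and GABPB1 (0.34) rose. GABPA was at 26.9 CPM in naive and 29.1 CPM in primed H9 and did not pass (0.12, edgeR adjusted p = 0.43), NRF1 fell by 0.29, and PPARGC1B, a coactivator of mitochondrial genes, fell from 56.2 to 16.2 CPM (-1.80) along with its partner receptor gene ESRRA, from 181 to 42.1 CPM (-2.10).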

How the data were processed

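Poly(A) RNA from 18 samples was sequenced; per the study's methods and processing notes, reads were trimmed with Trimmomatic 0.39, aligned to GRCh38 (human) or GRCm39 (mouse) by STAR and counted per gene by featureCounts at default settings, so reads on 2 genes and reads with several best matches are not counted. The authors deposited raw gene counts, 1 table per species, with exon coordinates; these counts were used as deposited. Symbols and biotypes came from GENCODE 44 and M39 by gene identifier.

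Genes passing filterByExpr (18300 human, 15003 mouse) were fitted per species with edgeR 4.0.16 (TMM, quasi-likelihood, 1 coefficient per group); DESeq2 1.42.0 was an alternative. Errors beside fold changes are standard errors; the common coefficient of biological variation was 8.18% in human and 4.30% in mouse. On simulated counts for the early to late comparison, 98% of 2-fold and 68% of 1.5-fold changes were recovered in human (16918 genes) and 100% and 92% in mouse (14264 genes). Of 1.25-fold changes, 10% were recovered in human and 48% in mouse. Changes were simulated only in genes above a level cut, with the same spread for every gene, so members with few counts are not covered. Genes named in a comparison were drawn from the 3 largest called rises and falls, those departing from the set and a list of genes with known roles. Not all of these are named in each comparison, and a few more were named after their values were seen. Members and lists were chosen with earlier results of these data known. Floors of 3 counts per library cover counting error only. GEO labels give no batch. Per the study's methods, read length and paired-end or single-end trimming could differ between libraries, and which library had which is not given there. Promoters of 9 human members and protein sequences were not analysed here.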

Additional observations from a re-analysis of the deposited data

Results flagged for a closer look

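Groups of 2 libraries are too small to look for outlying samples. The change from early to late gastruloids differed between human and mouse for 38 of 78 members, against 59.4% of all matched genes, by the test of the difference itself, in the joint edgeR fit with Benjamini-Hochberg adjustment. Among members that changed in opposite directions in the 2 species, the human minus mouse difference in log2 fold change was 1.27 for MRPS31, 1.14 for MRPL1, -1.25 for MRPS6, -1.20 for MRPL34, -0.86 for MRPS35, -0.56 for MRPS15 and -0.37 for MRPL18. For MRPL18 and MRPS15 the mouse rise seen in the mouse fit (0.17 and 0.26) was 0.04 and 0.14 in the joint fit and did not pass there (adjusted p = 0.71 and 0.25). Stage times and lines differ between the species, and their part was not tested.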

How the results depend on the processing

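Of 201 values recomputed under alternatives, 157 stayed within 1.5 times the reported count or within the spread of replicates and 44 moved. These are mostly counts in 1 direction, which cannot change sign. The balance of directions did turn with the scaling: in RUES2_GLR to early RA-gastruloids it went from 24 higher and 8 lower to 15 and 18 (upper quartile), with the large subunit median going from 0.01 to -0.12, and for the species difference from 22 above and 16 below to 15 and 22 (DESeq2 size factors). With a log2 fold change above 1 also required, higher and lower members were 1 and 19 in naive to primed H9, 1 and 9 in primed H9 to RUES2_GLR, 1 and 2 in RUES2_GLR to early RA-gastruloids, 0 and 1 in early to late RA-gastruloids, 1 and 0 in mouse naive ESCs to EpiLCs, 0 and 0 in EpiLCs to early gastruloids, 1 and 0 in naive ESCs to early gastruloids and 1 and 3 in mouse early to late. Over all genes tested, the numbers past this cut, higher and then lower, were as follows. Of 18300 human genes they were 4661 and 4086, 3130 and 2227, 2190 and 3223, and 2153 and 2411, in the same order. Of 15003 mouse genes they were 2651 and 1814, 1756 and 1387, 2429 and 1022, and 3019 and 2865. Fitting the compared groups alone gave 7 higher in primed H9 to RUES2_GLR and 20 lower in RUES2_GLR to early. In the latter, DESeq2 size factors gave 16 lower, and no filter 13 higher. DESeq2 gave 6 higher in early to late RA-gastruloids, 1 higher in EpiLCs to early, and 0 higher and 27 lower in mouse naive to early. Leaving out 1 library at a time gave 29 to 46 lower in primed H9 to RUES2_GLR, 13 to 19 higher and 2 to 9 lower in RUES2_GLR to early, 5 to 13 higher in early to late RA-gastruloids, 19 to 29 higher in mouse naive to EpiLCs, and 1 to 3 higher in both EpiLCs and naive ESCs to early gastruloids. There the lone library is assumed to vary like the other groups. The mean large to small ratio was 2.23 and 2.63 (human and mouse) with subunits assigned by structure, 1.80 and 2.21 from CPM, and 2.17 and 2.55 without the highest gene of each subunit. The count of species differences was 28 to 42 with 1 library left out, 37 with DESeq2 size factors and 41 with the filter applied in each species. Same-numbered replicates did not deviate together (correlations between groups from -0.111 to 0.0684 in human and -0.0484 to 0.00806 in mouse), so the numbers do not pair samples. With the replicate block the counts were 4 higher and 57 lower in naive to primed H9, 24 and 7 in RUES2_GLR to early and 29 and 14 in mouse naive to EpiLCs, and no count moved by over 1.5 times. The shallowest library, with 10176 counts on the set, limits what RUES2_GLR comparisons can show for members under about 1 CPM.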

Other observations

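MRPS36, which is named as a ribosomal gene but encodes a dehydrogenase complex component, moved with the set from naive to primed H9 (34.9 to 14.3 CPM, -1.26 ± 0.13 SE, edgeR adjusted p = 3.9e-10) and against its median in RUES2_GLR, where it was at 20.5 and 19.1 CPM against 13.1 and 15.5 CPM in primed H9. MRPL41, the highest human gene per length, stood at 172 and 248 CPM in naive H9 and between 36.3 and 87.7 CPM in all other human libraries. Per length, its group means ran from 178.5 to 1107 TPM, and those of mouse Mrpl41 from 86.8 to 111 TPM.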
